A study of Mus musculus with 27 samples.

Results

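Elf4, Zfx, Zfp280c, Zfp449 and Zfp275 are 5 X-linked mouse genes that encode DNA-binding or zinc finger proteins. They were taken by name from the 276 genes in the deposited X-chromosome tables of allelic ratios, and all 5 were measured in both tables. They were picked as factors whose ratios fall to different depths after Xist induction, so the order among them in WT cells is given as a description. Chromatin-associated RNA, which stays with the chromatin pellet and is rich in nascent transcripts, was sequenced from female embryonic stem (ES) cells of a 129S X Cast cross and from neural precursor cells (NPC). Its stated purpose was to examine silencing by Xist through the allelic ratio. One of them, the Spen table, holds 270 genes in 17 libraries, and the other, called the CIZ1 table here, holds ratios of 254 genes in 10 libraries. With 4 WT libraries in common, they cover 23 of the 27 samples.

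All of these cells carry a doxycycline-inducible (TetOn) promoter in place of the Xist promoter on the 129S allele. The WT, SpenKO and CIZ1 KO cells, whose sample titles hold the name BglHalo, also carry a Bgl stem-loop insertion at the end of Xist. The titles of the SPOCmut clones do not hold that name. In comparisons of SPOCmut with WT or SpenKO, the mutation therefore cannot be told apart from a possible difference in this insertion. Doxycycline was used at 1.0 to 1.5 µg/mL. SPOCmut cells, which carry a mutated Spen SPOC domain, were sampled without doxycycline and at 24 h as 3 clones (C10, C2 and G1, replicates 1 to 3). SpenKO cells, which the series text calls SpenRRM, had 2 libraries without doxycycline, 1 at 3 h and 2 at 24 h. CIZ1 KO cells had 2 libraries without doxycycline, 2 at 24 h and 1 of NPC at day 30. WT, the line without these mutations, had 2 libraries without doxycycline, 2 at 3 h, 2 at 24 h and 1 of NPC at day 30. Several clones are labelled for SPOCmut only, so in the other lines genotype and line cannot be told apart. ES cells were grown on mouse fibroblast feeders, whose RNA can be present. No label says that replicates of WT, SpenKO or CIZ1 KO were separate cultures, so the spread between these libraries may be technical. The fit pools the spread within groups over all libraries of a table. P-values of every line, SPOCmut included, therefore rest in part on a spread that may be technical.

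Xist is a long noncoding RNA that coats the X chromosome it is made from and silences its genes in cis. SPEN binds Xist RNA and recruits corepressors through its SPOC domain, and CIZ1 is a nuclear matrix protein that holds Xist in place in some cell types. Elf4 belongs to the ETS family of transcription factors and is known for its part in innate immunity and in the quiescence of lymphocytes and blood stem cells. Zfx, a C2H2 zinc finger activator, is needed for self-renewal of mouse ES and blood stem cells, and its human counterpart escapes X inactivation. Zfp280c and Zfp275 also encode C2H2 zinc finger proteins, and Zfp449 combines such fingers with a SCAN domain, a protein interaction module. The human counterpart of Zfp280c is known to restrain the resection of DNA ends.

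All 5 genes are annotated as protein coding and lie on the side of Xist (X:103460372-103483233) with lower coordinates, in the mm10 coordinates of the deposited tables. Elf4 (chrX:48411048-48463132, minus strand) and Zfp280c (chrX:48541625-48594452, minus strand) are separated by 78.5 kb, at 55.05 and 54.92 Mb from Xist, measured between the lower coordinates of the genes. Zfp449 (chrX:56346399-56365674, plus strand) lies 47.1 Mb away, Zfp275 (chrX:73342619-73359080, plus strand) 30.1 Mb and Zfx (chrX:94074630-94123407, minus strand) 9.39 Mb. Exons make up 11.8% of the span of Elf4, 9.90% of Zfp280c, 15.8% of Zfx, 19.4% of Zfp449 and 41.0% of Zfp275. Of the 5, Zfx alone overlaps another annotated gene, the antisense gene Gm14798, over 24675 bp on the opposite strand. The library kit was stranded, but the strand setting of the counting is not given in the sources used here, so reads of Zfx and Gm14798 cannot be told apart with certainty. Zfx also has an autosomal processed copy, Zfa, and how reads common to both were handled is not given in these sources either.

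The RefSeq promoter table (GRCm38.p6) matched 4 of the 5 genes, all but Zfp449. These 4 are also the genes that fell in WT cells at 24 h. The 250 bases upstream of the RefSeq start are shown for each of them, with each CpG dinucleotide in capitals. All are written 5′ to 3′ on the strand of the gene. The windows are chrX:48463133-48463382 (minus strand) for Elf4, chrX:94123408-94123657 (minus) for Zfx, chrX:48594620-48594869 (minus) for Zfp280c and chrX:73342370-73342619 (plus) for Zfp275.
Elf4: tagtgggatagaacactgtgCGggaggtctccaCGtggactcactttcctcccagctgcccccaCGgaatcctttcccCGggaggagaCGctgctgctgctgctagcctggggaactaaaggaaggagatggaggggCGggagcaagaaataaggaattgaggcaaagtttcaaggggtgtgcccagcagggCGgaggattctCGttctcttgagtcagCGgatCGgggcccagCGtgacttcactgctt
Zfx: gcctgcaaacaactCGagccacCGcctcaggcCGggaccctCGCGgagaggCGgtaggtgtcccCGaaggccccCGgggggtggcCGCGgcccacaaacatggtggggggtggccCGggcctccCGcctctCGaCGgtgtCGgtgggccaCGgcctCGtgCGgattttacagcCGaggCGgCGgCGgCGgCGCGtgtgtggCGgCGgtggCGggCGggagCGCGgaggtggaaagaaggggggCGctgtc
Zfp280c: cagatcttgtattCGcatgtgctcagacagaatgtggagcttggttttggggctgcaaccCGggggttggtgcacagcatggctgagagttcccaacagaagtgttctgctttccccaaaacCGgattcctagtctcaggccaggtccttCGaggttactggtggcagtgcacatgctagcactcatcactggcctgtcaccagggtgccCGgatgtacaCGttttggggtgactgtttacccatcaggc
Zfp275: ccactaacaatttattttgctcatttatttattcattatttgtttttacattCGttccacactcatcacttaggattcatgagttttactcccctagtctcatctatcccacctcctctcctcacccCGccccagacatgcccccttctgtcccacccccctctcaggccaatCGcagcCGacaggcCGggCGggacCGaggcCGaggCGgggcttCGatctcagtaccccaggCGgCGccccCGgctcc
The Zfx window holds 32 CpG dinucleotides at a GC content of 75.2%, and the Elf4 window 11 at 58.4%. The Zfp275 window holds 13 at 55.6%, and the Zfp280c window 6 at 54.8%, equal to the median of 6 over all windows of this length. The RefSeq start of Zfp280c lies 167 bp from the start in the deposited table. RefSeq lists 2 starts each for Elf4 and Zfx, and the start nearest to the deposited annotation was used. In the GENCODE annotation Zfx extends to position 94123702, so by that annotation its window lies within the gene. Neither the exact letters CCGGAA, an extended ETS site, nor AGGCCT, used for ZFX, occur on either strand of the 4 windows. Of the 32851 windows in the table, 12.0% and 8.70% hold them. Shorter or variant forms of these sites, such as GGAA for ETS factors, were not searched, so such sites may be present.

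The values are fractions from 0 to 1. Xist itself had a ratio of 0.933 to 0.999 in every library of these tables, and the inducible Xist is on 129S, so the ratio is read here as the 129S share of the allele-assigned reads. A lower ratio after doxycycline is then a smaller share of RNA from the X with induced Xist, and less RNA from it or more RNA from the Cast X cannot be told apart. The files give no read counts or expression levels. The depth behind each ratio is therefore unknown, and cell type markers and the targeted genes could not be checked. Library medians over all genes lay at 0.504 to 0.523 without doxycycline in all lines. Over the genes of the Spen table, they were 0.481 to 0.484 in WT at 3 h, and at 24 h 0.443 to 0.449 in SPOCmut and 0.503 to 0.506 in SpenKO, against 0.291 to 0.305 in WT. Over the genes of the CIZ1 table, they were 0.306 to 0.307 in CIZ1 KO at 24 h, against 0.289 to 0.297 in WT.

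After 24 h of doxycycline in WT cells, Elf4, Zfp280c, Zfx and Zfp275 fell, while Zfp449 did not pass the test. These 4 of 5 stand against a background of 88.9% of the 270 genes that fell, so most genes did the same. Elf4 had ratios of 0.222 and 0.198 at 24 h, against 0.571 and 0.569 without doxycycline. Zfp280c had 0.241 and 0.280 at 24 h, against 0.589 and 0.576 without doxycycline. Both genes were below 0.3 in each treated library and above 0.5 in each untreated one. How many of all genes met these cutoffs was not counted. The median of the mean ratios over all genes was itself 0.295 at 24 h and 0.506 without doxycycline in WT. In 93.7% of all genes the treated libraries lay below the untreated ones. Elf4 fell by 0.360 ± 0.0225 (SE, limma adjusted p = 8.68e-08), rank 10 of the 270 changes counted from the largest fall. Zfp280c, its neighbour but one on the chromosome, fell by 0.322 ± 0.0163 (adjusted p = 2.23e-08) and had rank 26. The median change over all genes was -0.197.

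Zfx and Zfp275 fell less. Zfx had 0.395 and 0.377 at 24 h, against 0.597 and 0.572 without doxycycline, a fall of 0.198 ± 0.0165 (adjusted p = 8.17e-07) close to the median gene. Zfp275 had 0.321 and 0.293 at 24 h, against 0.467 and 0.486 without doxycycline. Its fall was 0.170 ± 0.0267 (adjusted p = 0.000124). In both genes the treated libraries lay below the untreated ones, as in 93.7% of all genes.

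Zfp449 had 0.479 and 0.547 at 24 h, against 0.520 and 0.485 without doxycycline, and the groups overlapped. The difference was 0.0101 ± 0.0474 (95% interval -0.0948 to 0.115, adjusted p = 0.845), rank 268 of 270 counted from the largest fall. The interval does not reach the median change of -0.197. As Zfp449 was among the genes picked for differing depth, its distance from the median is a description. Replicates of Zfp449 varied more than those of the other 4 genes. Its pooled within-group SD in the Spen table was 0.0507, against 0.0277 for Zfp275, 0.0230 for Elf4, 0.0158 for Zfx and 0.0156 for Zfp280c, with a median of 0.0278 over all genes. In the CIZ1 table it was 0.0869 for Zfp449, beside a median of 0.0288.

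Seen as a share of the untreated level, the WT ratio at 24 h was 36.8% for Elf4, 44.8% for Zfp280c, 64.4% for Zfp275, 66.1% for Zfx and 102% for Zfp449, beside a median of 60.6% over all genes. In level, the order at 24 h from low to high was Elf4 (0.210 ± 0.0171, SD, n = 2), Zfp280c (0.261), Zfp275 (0.307), Zfx (0.386) and Zfp449 (0.513), and no adjacent pair overlapped between libraries. Without doxycycline the order was Zfp275 (0.476), Zfp449 (0.503), Elf4 (0.570), Zfp280c (0.582) and Zfx (0.585). There the libraries of Zfp275 and Zfp449 overlapped, as did those of Zfp280c and Zfx. The plot of every library shows these levels together.

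**Figure D1:**
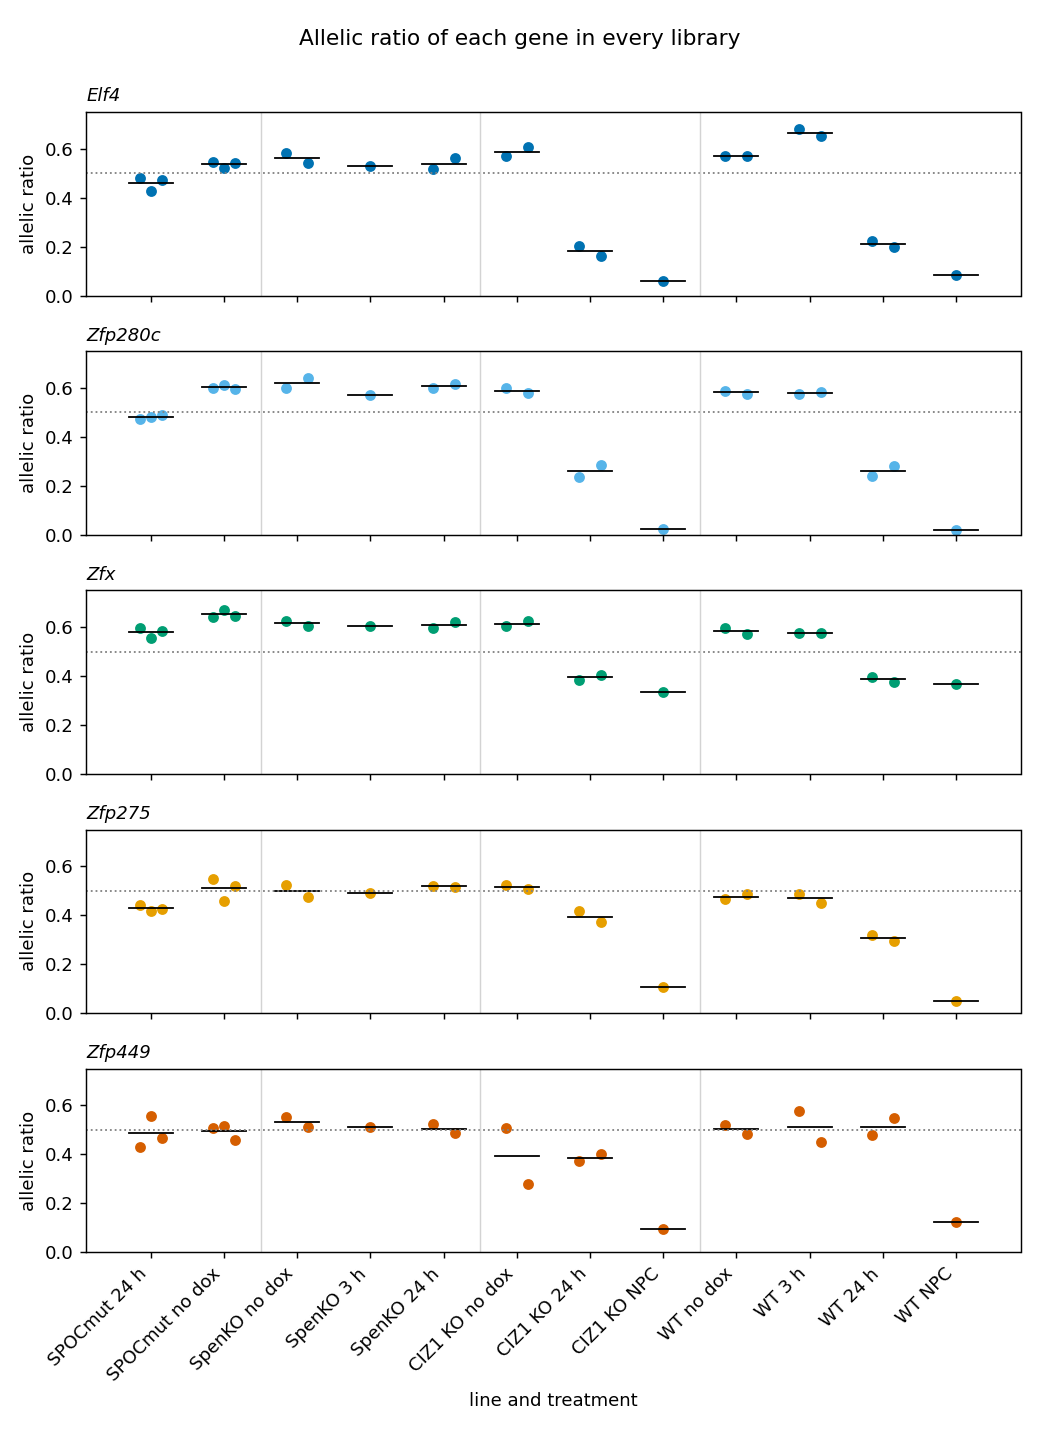
Allelic ratio (vertical axis, 129S share of allele-assigned reads, 0 to 1) of each of the 5 genes in every library of the 12 groups, 1 panel per gene, with each point a library. At 24 h in WT, Elf4 sits at 0.222 and 0.198 and Zfp449 at 0.479 and 0.547, while in SpenKO the treated and untreated libraries overlap in all 5 genes.

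At 3 h in WT cells, Elf4 rose and the other 4 genes did not pass the test. Elf4 had 0.682 and 0.651 at 3 h, against 0.571 and 0.569 without doxycycline. Both 3 h libraries were above both untreated ones, as in 17.4% of all genes. The rise was 0.0964 ± 0.0225 (SE, limma adjusted p = 0.00969). Over all genes, 22.2% passed at 3 h, 5.19% by a rise, and 46 genes fell. The median change was -0.0205. The call was lost when the fit held only the compared groups (adjusted p = 0.0750), under Benjamini-Yekutieli adjustment (0.0599) and without replicate 1 at 3 h, where the rise was 0.0809 (adjusted p = 0.0809). From this higher level, Elf4 was lower at 24 h than at 3 h by a difference of -0.456, rank 2 of 270 from the largest fall.

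The other 4 genes differed at 3 h by -0.0104 (Zfx), -0.00417 (Zfp280c), 0.00973 (Zfp449) and -0.00785 (Zfp275), and none of them passed the test. Zfx had 0.574 in both 3 h libraries, against 0.597 and 0.572 without doxycycline, and Zfp449 had 0.576 and 0.448, against 0.520 and 0.485 without doxycycline. In both genes the groups overlapped. Between 3 h and 24 h, 4 of the 5 genes fell, beside a background of 85.6%: Elf4, Zfp280c by 0.317, Zfx by 0.188 and Zfp275 by 0.162. In Zfp449 the 2 times differed by 0.000346 (adjusted p = 1).

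**Figure D2:**
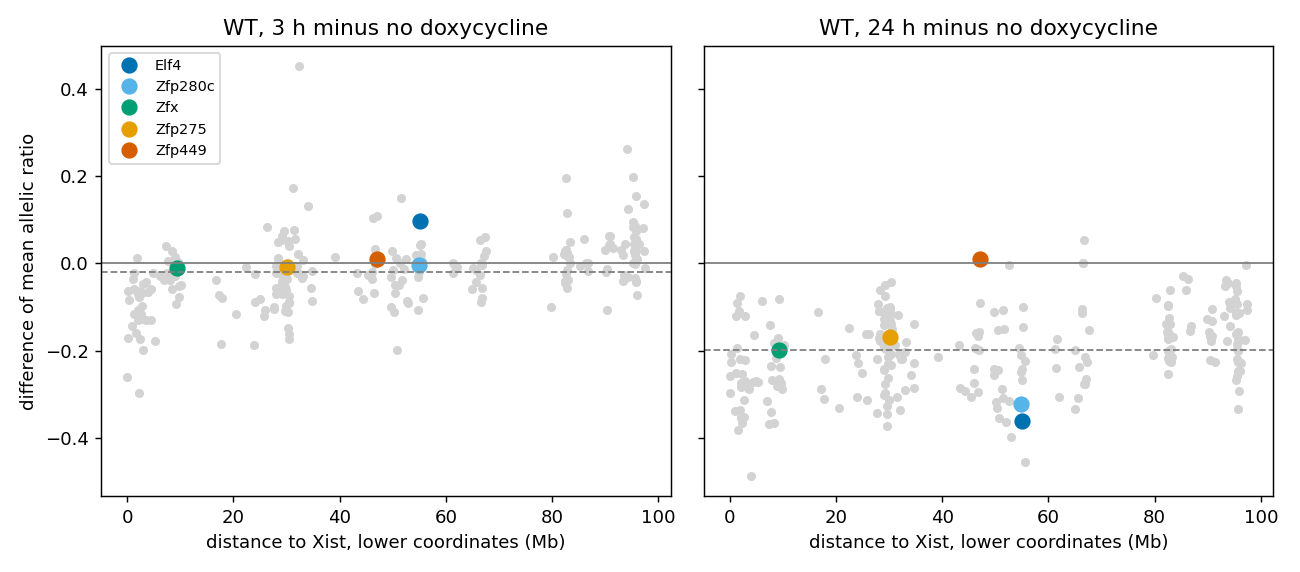
Change of the allelic ratio from untreated WT cells (vertical axis) at 3 h and at 24 h against the distance to Xist in Mb between lower coordinates (horizontal axis), with the 5 genes marked among the genes of the Spen table other than Xist and a dashed line at their median. Elf4 and Zfp280c, at 55.05 and 54.92 Mb, lie at 0.0964 and -0.00417 at 3 h and at -0.360 and -0.322 at 24 h, and Zfp449 stays near 0 at both times.

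The nearest measured genes were read beside them. On either side of Elf4 lie Bcorl1, a corepressor subunit 4.32 kb away, and Aifm1, a mitochondrial flavoprotein 11.8 kb away, and beyond Zfp280c lies the mitochondrial carrier Slc25a14, at 29.1 kb. At 24 h in WT these 3 genes fell by 0.241, 0.267 and 0.211, each less than Elf4 and Zfp280c by value. At 3 h, none of the 3 passed the test: Bcorl1 differed by 0.0424 (adjusted p = 0.300), Aifm1 by -0.0207 and Slc25a14 by -0.0305. Elf4 was thus the only one of these 5 neighbours to pass at 3 h, and the differences between neighbours were not tested.

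Near Zfp449, the transcript 6330419J24Rik lies 8.91 kb downstream. It differed by -0.0902 at 24 h in WT (adjusted p = 0.0526) and fell by 0.0981 in SPOCmut (adjusted p = 0.0281). On the other side the closest measured gene, 1700013H16Rik, is 2589 kb away and fell by 0.112 in WT. The gene next to Zfx with higher coordinates, Eif2s3x, which encodes a translation initiation factor subunit known to escape X inactivation, fell by 0.0804, and AU015836, on the other side, by 0.238. Haus7, a subunit of the augmin complex 78.2 kb from Zfp275, fell by 0.114, and Xlr3c, of a multigene family whose reads are uncertain, differed by -0.101 (adjusted p = 0.161).

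In SpenKO cells none of the 5 genes passed the test at 24 h. Elf4 had 0.517 and 0.563 at 24 h, against 0.585 and 0.543 without doxycycline, and Zfp280c had 0.601 and 0.615, against 0.600 and 0.643 without doxycycline. Treated and untreated libraries overlapped in all 5 genes, while over all genes the treated libraries lay below the untreated ones in 27.4% and above them in 8.89%. The differences were -0.0240 for Elf4, -0.00464 for Zfx, -0.0134 for Zfp280c, -0.0269 for Zfp449 and 0.0189 for Zfp275. The count of 0 of 5 in limma, also 0 at an unadjusted p under 0.05, stands beside a background of 0.741% of all genes called. At an unadjusted p under 0.05 there were 18 lower and 1 higher genes of 270.

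The 24 h response of SpenKO was smaller than that of WT in 4 of the 5 genes, beside 76.7% of all genes. The responses, SpenKO minus WT, differed by 0.336 in Elf4 (adjusted p = 6.57e-06), 0.308 in Zfp280c (1.08e-06), 0.194 in Zfx (3.13e-05) and 0.189 in Zfp275 (0.000995). In Zfp449, which did not pass in either line, the difference was -0.0370 (95% interval -0.185 to 0.111, adjusted p = 0.613). The single SpenKO library at 3 h gave 0.528 for Elf4 and 0.572 for Zfp280c, both below the untreated SpenKO libraries. The share of all genes placed in this way was not counted. The differences from the untreated mean were -0.0356 and -0.0495, ranks 56 and 44 of 270 from the largest fall, beside a median of -0.000564. For Elf4 the WT libraries at 3 h lay above the untreated WT ones. With 1 library this was not tested. The same library gave 0.606 for Zfx, 0.512 for Zfp449 and 0.490 for Zfp275, each between the untreated values.

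In SPOCmut cells Elf4, Zfx, Zfp280c and Zfp275 fell at 24 h, by less than in WT. These 4 of 5 stand beside a background of 49.6% of all genes that fell. Elf4 had 0.482, 0.428 and 0.473 at 24 h, against 0.547, 0.522 and 0.544 in the same clones without doxycycline, a fall of 0.0766 ± 0.0184 (limma adjusted p = 0.00528). Zfp280c had 0.473, 0.480 and 0.490 at 24 h, against 0.599, 0.613 and 0.597 without doxycycline, and fell by 0.122 ± 0.0133 (adjusted p = 2.53e-05). Every treated clone was below every untreated one in both genes, as in 60% of all genes.

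Zfx had 0.595, 0.557 and 0.584 in SPOCmut at 24 h, against 0.640, 0.670 and 0.646 without doxycycline, a fall of 0.0733 ± 0.0135 (adjusted p = 0.00106). Zfp275 had 0.444, 0.418 and 0.427 at 24 h, against 0.550, 0.459 and 0.520 without doxycycline, a fall of 0.0800 ± 0.0218 (adjusted p = 0.0104, and 0.0642 under Benjamini-Yekutieli adjustment). The treated clones were again below the untreated ones in both genes, the same separation as in that 60%. Zfp449 had 0.431, 0.558 and 0.468 at 24 h, against 0.506, 0.516 and 0.459 without doxycycline, with overlap between the groups and a difference of -0.00743 ± 0.0387 (adjusted p = 0.888).

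Set against WT, the SPOCmut fall was 21.3% of the WT fall in Elf4, 36.9% in Zfx, 37.9% in Zfp280c and 47.2% in Zfp275. These shares are a description, and they do not separate the mutation from a possible difference in the Bgl insertion. The difference in response, SPOCmut minus WT, passed in 4 of 5 genes beside 58.5% of all genes. It was 0.283 in Elf4 (adjusted p = 2.58e-05), 0.200 in Zfp280c (2.93e-05), 0.125 in Zfx (0.000543) and 0.0896 in Zfp275 (0.0443). The call for Zfp275 was lost in 9 of the 10 fits that left out 1 library and held only without replicate 1 of SPOCmut without doxycycline (lowest and highest difference 0.0644 and 0.110, adjusted p 0.0131 to 0.134). It was also lost with only the compared groups (0.0642) and under Benjamini-Yekutieli adjustment (0.273). In Zfp449 the difference was -0.0175 (95% interval -0.153 to 0.118, adjusted p = 0.826).

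**Figure D3:**
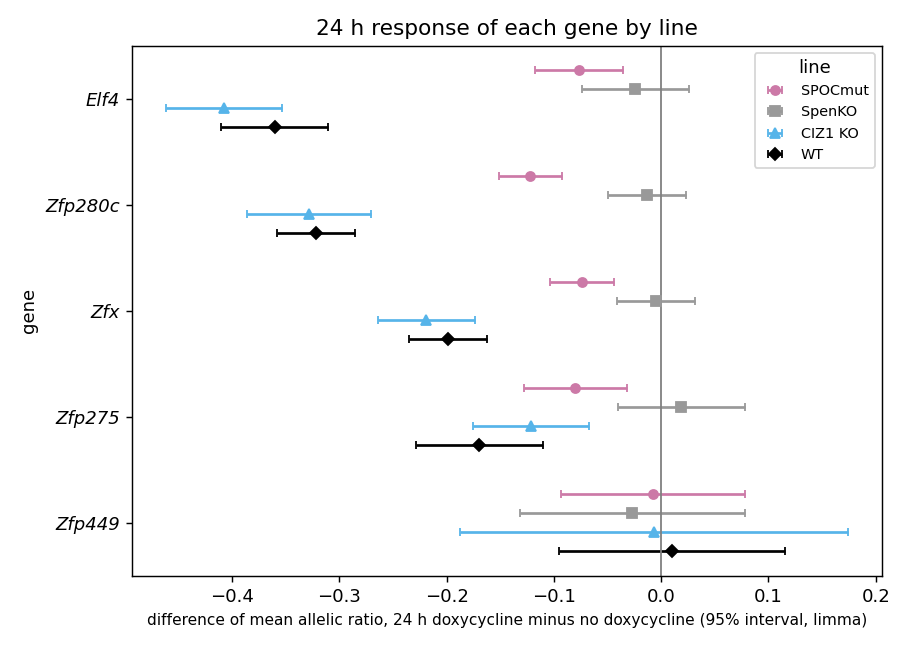
Difference of the allelic ratio at 24 h from that without doxycycline (horizontal axis) for each of the 5 genes in SPOCmut, SpenKO, CIZ1 KO and WT, with points for the limma estimate and bars for its 95% interval. Elf4 changed by -0.0766 in SPOCmut and -0.407 in CIZ1 KO, against -0.360 in WT, while every interval of Zfp449 crosses 0.

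SPOCmut and SpenKO were also set against each other. The fall was larger in SPOCmut than in SpenKO for Zfp280c, by a difference of -0.109 (adjusted p = 0.00483), and for Zfx, by -0.0687 (adjusted p = 0.0417), 2 of 5 genes beside 23.0% of all genes. Zfx lost the call with replicates paired by clone and number as a block (adjusted p = 0.107), with only the compared groups (0.0615), under Benjamini-Yekutieli adjustment (0.257) and in 9 of 10 fits that left out 1 library, all but that without replicate 1 of SPOCmut at 24 h. Elf4 differed by -0.0526 (95% interval -0.117 to 0.0118, adjusted p = 0.209), Zfp275 by -0.0989 (adjusted p = 0.0634) and Zfp449 by 0.0195 (0.847). Without replicate 2 of SPOCmut without doxycycline, the value for Zfp275 was -0.124 (adjusted p = 0.0105).

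In CIZ1 KO cells the same 4 genes fell at 24 h as in WT, beside a background of 85.0% of 254 genes. Elf4 had 0.202 and 0.162 at 24 h, against 0.572 and 0.606 without doxycycline, a fall of 0.407 (adjusted p = 7.72e-05) that had rank 8 of 254. Zfp280c had 0.238 and 0.284 at 24 h, against 0.599 and 0.579 without doxycycline. Zfx had 0.385 and 0.404 at 24 h, against 0.604 and 0.624 without doxycycline, and Zfp275 had 0.416 and 0.371 at 24 h, against 0.523 and 0.506 without doxycycline. In these 4 genes the treated libraries lay below the untreated ones, as in 91.7% of all genes. Zfp280c fell by 0.328, Zfx by 0.219 and Zfp275 by 0.121 (adjusted p = 0.00281).

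Zfp449 had 0.372 and 0.402 in CIZ1 KO at 24 h, against 0.509 and 0.278 without doxycycline, and the treated values lay between the untreated ones. The difference of -0.00695 ± 0.0733 (adjusted p = 0.931) rests on those 2 untreated libraries. Without replicate 1 without doxycycline it was 0.109, and without replicate 2 it was -0.123, so the sign of the difference depended on which untreated library was used. Either fit kept only 1 untreated library and dropped the spread between the 2, so only the differences are given.

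None of the 5 genes passed the limma test for a difference between CIZ1 KO and WT in the 24 h response, nor in level at 24 h (0% of all genes for both). At an unadjusted p under 0.05, 0 of 5 genes and 11 of 254 passed for the response, and 1 of 5 and 25 of 254 for the level. The gene of the 5 was Zfp275, with 0.416 and 0.371 in CIZ1 KO, against 0.321 and 0.293 in WT, a difference of 0.0867 ± 0.0220 (unadjusted p = 0.00800, adjusted p = 0.384). Zfp449 had the larger difference by value, with 0.372 and 0.402 in CIZ1 KO, against 0.479 and 0.547 in WT. It was -0.126 ± 0.0733 (95% interval -0.307 to 0.0548, adjusted p = 0.675), rank 1 of 254 from the most negative. Both CIZ1 KO libraries lay above both WT ones in Zfp275, as in 26.8% of all genes, and below them in Zfp449, as in 13.4%. The intervals of the response difference, CIZ1 KO minus WT, were -0.123 to 0.0286 for Elf4, -0.0843 to 0.0433 for Zfx, -0.0883 to 0.0754 for Zfp280c, -0.0282 to 0.125 for Zfp275 and -0.273 to 0.239 for Zfp449.

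Without doxycycline, none of the 5 genes passed between SPOCmut, SpenKO or CIZ1 KO and WT (0% of all genes in each comparison). Zfx came nearest, with 0.640, 0.670 and 0.646 in SPOCmut, against 0.597 and 0.572 in WT. The untreated SPOCmut libraries lay above the WT ones in Zfx and Zfp280c, as in 23.7% of all genes, and below them in Elf4, as in 7.78%. Zfx was higher in SPOCmut by 0.0673 ± 0.0151 (unadjusted p = 0.00106, adjusted p = 0.136). At an unadjusted p under 0.05 it was 1 of 5 genes in SPOCmut (34 of 270 overall), beside Zfp280c alone in SpenKO (22 of 270) and 0 of 5 in CIZ1 KO (16 of 254). The untreated Zfp449 level of CIZ1 KO differed from WT by -0.109, a value made by replicate 2 at 0.278, and by 0.00689 without it.

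In NPC at day 30, with 1 library per line and no test, the order of the genes was not that of the ES cells at 24 h. The sources used here do not state if these cultures were given doxycycline. Zfx kept a ratio of 0.335 in CIZ1 KO NPC and 0.368 in WT NPC, and of the 254 genes 9 were higher in CIZ1 KO NPC and 6 in WT NPC. Zfp449, which did not pass the test in ES cells at 24 h, had 0.0946 in CIZ1 KO NPC and 0.123 in WT NPC. The medians over all genes were 0.0830 in CIZ1 KO and 0.0546 in WT.

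Zfp280c lay below the median in NPC of both lines, with 0.0230 in CIZ1 KO and 0.0198 in WT. Elf4 and Zfp275 lay on either side of it: Elf4 had 0.0583 in CIZ1 KO and 0.0845 in WT, and Zfp275 had 0.107 in CIZ1 KO and 0.0503 in WT. By value, Elf4, Zfp449 and Zfx were thus lower in CIZ1 KO NPC than in WT NPC, and Zfp280c and Zfp275 higher. Taken as NPC minus the 24 h mean, Zfp449 changed by -0.292 in CIZ1 KO and by -0.390 in WT. These had ranks 35 and 6 of 254 from the largest fall. From the untreated mean, Zfp449 changed by -0.299 in CIZ1 KO (rank 208) and by -0.380 in WT (rank 167). The medians of that change were -0.418 and -0.428, so Zfp449 fell by less than the median gene. In the step from 24 h to NPC, Zfx changed by -0.0593 in CIZ1 KO and by -0.0184 in WT. The median of this step was -0.195 in CIZ1 KO and -0.201 in WT. NPC and ES cells differ in cell type as well as in time, and the 2 cannot be told apart.

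**Figure D4:**
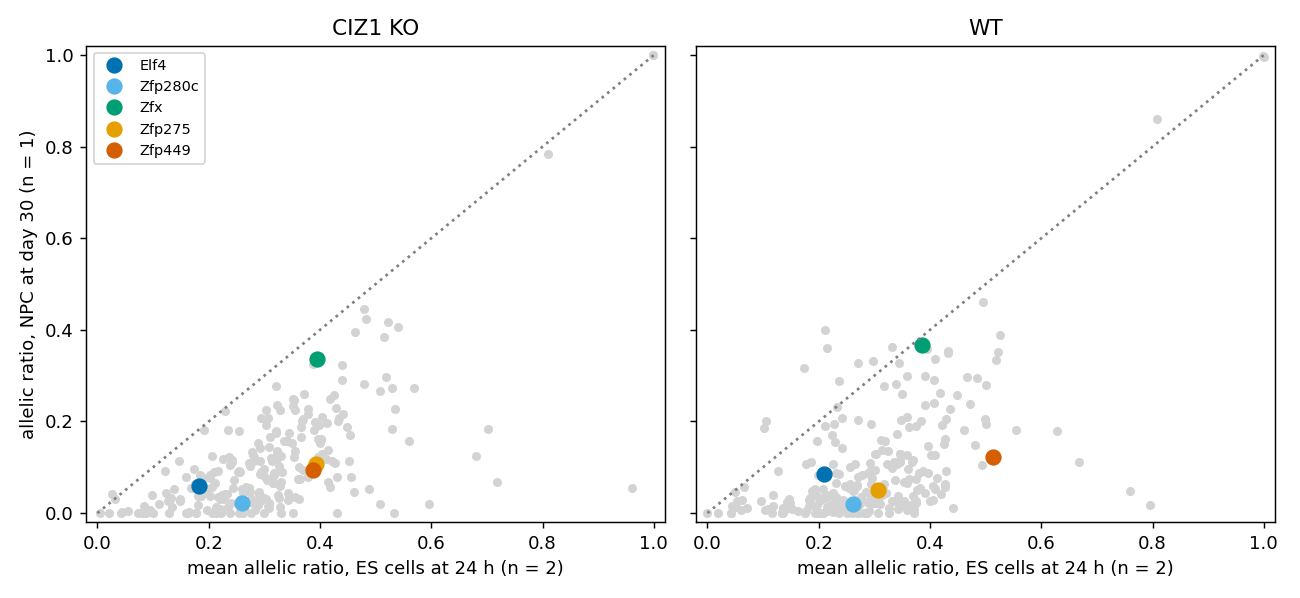
Allelic ratio in NPC at day 30 (vertical axis, 1 library per line) against the mean ratio at 24 h of doxycycline in ES cells (horizontal axis) in CIZ1 KO (left) and WT (right), with the 5 genes marked among 254 genes and a dotted line of equality. Zfx lies at 0.335 in CIZ1 KO and 0.368 in WT, near the line, and Zfp449 lies far below it at 0.0946 in CIZ1 KO and 0.123 in WT.

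By the root mean square difference of the ratio over the 17 libraries of the Spen table, Elf4 was most like Flna (0.0540) and Msn (0.0555), and Zfx most like Syn1 (0.0392) and 1810030O07Rik (0.0393). Zfp280c was closest to Firre (0.0421) and Jade3 (0.0496), and Zfp449 to Brcc3 (0.0529) and Idh3g (0.0538). The closest genes of Zfp449 lay lower at 24 h by value, as Brcc3 averaged 0.405 and Idh3g 0.410 at 24 h in WT, against 0.513 and 0.514 without doxycycline. None of the 5 was among the closest genes of another.

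Among 10 measured X-linked zinc finger genes of 18 listed, 9 fell in WT at 24 h, beside 88.9% of all genes, and the exception was Zfp449. The 10 include Zfx, Zfp280c, Zfp449 and Zfp275, which were picked for their differing ratios, so the counts and median are a description. Their median change was -0.217, beside -0.197 over all genes. Zmym3, a zinc finger subunit of histone demethylase complexes, fell by 0.354, and Zc3h12b by 0.339. Zfp182 followed Zfp449 as the next smallest change, a fall of 0.0980. At 3 h 1 of the 10 fell, Zmym3 by 0.130, and 0 rose, beside 46 lower and 14 higher of all 270 genes. In SPOCmut 6 of 10 fell (49.6% of all genes). In SpenKO 0 of 10 passed in limma (0.741% of all genes), also 0 at an unadjusted p under 0.05. In CIZ1 KO 9 of 10 fell (85.0% of all genes), again all but Zfp449.

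Of 10 other measured X-linked DNA-binding transcription factors, 10 fell in WT at 24 h, beside 88.9% of all genes. Their median was -0.260, against -0.197 over all genes, and Elf4 had the largest fall by value. Elf4 is itself among the genes picked for their differing ratios, so its place is a description. Elk1, the other ETS factor of the list, fell by 0.157 at 24 h and differed by 0.0309 at 3 h (adjusted p = 0.400). Foxo4, a forkhead factor, had already fallen by 0.298 at 3 h, and Nr0b1, an orphan nuclear receptor of the pluripotency network, fell by 0.288 at 24 h. At 3 h 2 of the 10 fell and 1, Elf4, rose, beside 46 lower and 14 higher of all 270 genes. In SPOCmut 5 of 10 fell (49.6% of all genes). In SpenKO 0 of 10 passed in limma (0.741% of all genes), and 1 at an unadjusted p under 0.05. In CIZ1 KO 8 of 10 fell (85.0% of all genes).

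Of 13 measured cofactors and chromatin regulators, 12 fell in WT at 24 h, beside 88.9% of all genes, and their median was -0.220, against -0.197 over all genes. The ISWI remodeller Smarca1 fell by 0.456 and the Mediator subunit Med12 by 0.284. Kdm6a, a histone demethylase known to escape X inactivation, fell by 0.0291, and the histone methyltransferase Suv39h1 differed by -0.0449 (adjusted p = 0.178). Both changes were further from 0 than that of Zfp449, whose standard error was larger. At 3 h 2 of the 13 fell and 2 rose, beside 46 lower and 14 higher of all 270 genes. In SPOCmut 6 of 13 fell (49.6% of all genes). In SpenKO 0 of 13 passed in limma (0.741% of all genes), also 0 at an unadjusted p under 0.05. In CIZ1 KO 11 of the 12 measured there fell (85.0% of all genes).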

How the data were processed

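Per the labels' protocols, chromatin-associated RNA went into a stranded kit for total RNA. The deposited values are allelic ratios, a fraction per gene and library. Named in the submitters' processing notes, with no role, are STAR 2.4.2a, Bowtie2 2.3.2, featureCounts, bedtools, SAMtools and edgeR, with mm10 as build. The sources used here do not give the allele in the numerator, the filters on genes or any read minimum, and read depth is unknown. A column marked Dox without a time was read as 24 h, since 3 h columns stand beside it. Values of the 4 WT libraries in both tables were identical (0 differ). The table of chromosome 15 was not analysed here.

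The raw ratios of all genes of a table were fitted with limma 3.58.1 (R 4.3.3), all its libraries together and without a replicate block, after the fit was tested on simulated data. P-values were adjusted by Benjamini-Hochberg over the genes of the table, with calls at an adjusted p under 0.05. Differences in response are interaction contrasts in the same fit. Groups of 1 library got no test. No filter, scaling or imputation was applied, and the labels give no batch. SPOCmut replicates are paired by clone in the labels. Their deviations from the group means correlated at -0.0170, -0.113 and 0.148 within the 3 clones. Alternatives were log2 odds (offset 0.01), only the compared groups, robust variance moderation, leaving out genes with an untreated mean ratio under 0.25 or over 0.75, Benjamini-Yekutieli adjustment, a replicate block and leaving out each library in turn.

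The 5 genes and the gene lists were chosen with earlier results of these data known. The genes named beside them are, by rule, the 2 most alike and the nearest on either side of each, and in each list those with the 4 largest and 2 smallest changes in WT at 24 h, of which some are printed and some are not reported here.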

Additional observations from a re-analysis of the deposited data

Results flagged for a closer look

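The 24 h response differed between lines, by the test of the difference itself, in 4 genes for SpenKO minus WT: Elf4 by 0.336, Zfx by 0.194, Zfp280c by 0.308 and Zfp275 by 0.189. SPOCmut minus WT differed in the same 4, Elf4 by 0.283, Zfx by 0.125, Zfp280c by 0.200 and Zfp275 by 0.0896. SPOCmut minus SpenKO differed by -0.0687 in Zfx and by -0.109 in Zfp280c. Both differences from WT use the same WT libraries, and 76.7% and 58.5% of all genes passed in the same way. The calls for Zfp275 in SPOCmut minus WT and for Zfx in SPOCmut minus SpenKO were lost in 9 of 10 fits that left out a library. No group had enough libraries for a search for outlying samples.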

How the results depend on the processing

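Of 70 values of single genes over the 14 comparisons, 70 kept their direction and their side of the threshold on the log2 odds scale, with robust variance moderation and without genes of skewed untreated ratio. With only the compared groups 3 lost their call and under Benjamini-Yekutieli adjustment 4, and the number of called genes among the 5 became 0 for WT at 3 h and 1 for SPOCmut minus SpenKO under both. With the replicate block that last number was also 1, since Zfx lost its call (adjusted p = 0.107), and the block changed no other call among the 50 values it could be fitted to. Same-numbered libraries of WT, SpenKO and CIZ1 KO are not paired by the labels, and their deviations correlated between -0.107 and 0.161. Comparisons between lines at one time could not be fitted with the block.

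Leaving out 1 library gave 0 to 1 called genes of 5 for WT at 3 h, 1 to 2 for SPOCmut minus SpenKO, 3 to 4 for SPOCmut minus WT and 4 to 5 for CIZ1 KO at 24 h. In groups of 2 libraries these fits kept 1, so the call that Zfp449 gained in this way in CIZ1 KO is not read as a result. Over all genes, the count for WT at 3 h was 2 with only the compared groups and 38 under Benjamini-Yekutieli adjustment, against 60. For SpenKO at 24 h it was 0, against 2, under both of these and with the block, and for SPOCmut minus SpenKO it was 34 under Benjamini-Yekutieli adjustment and 41 without SpenKO replicate 1 at 24 h, against 62. Without CIZ1 KO replicate 1 without doxycycline, 2 genes differed in response from WT and 4 in untreated level, against 0.

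Some values that had not passed changed sign when a library was left out, and the cause was not tested. For Zfp449 the lowest and highest values were -0.0240 and 0.0441 (WT 24 h), -0.0543 and 0.0737 (WT 3 h), -0.0637 and 0.0643 (WT 24 h against 3 h), -0.0437 and 0.0198 (SPOCmut 24 h) and -0.123 and 0.109 (CIZ1 KO 24 h). Its differences in response spanned -0.0538 to 0.0165 (SPOCmut minus WT), -0.0168 to 0.0467 (SPOCmut minus SpenKO) and -0.133 to 0.0988 (CIZ1 KO minus WT), and its untreated differences from WT -0.0272 to 0.00863 (SPOCmut) and -0.225 to 0.00689 (CIZ1 KO). Zfp280c spanned -0.0109 to 0.00257 (WT 3 h), -0.0348 to 0.00803 (SpenKO 24 h), -0.0296 to 0.0166 (response, CIZ1 KO minus WT), -0.0233 to 0.0229 (CIZ1 KO against WT at 24 h) and -0.00362 to 0.0162 (CIZ1 KO against WT, untreated). Zfx spanned -0.0228 to 0.00197 (WT 3 h), -0.0169 to 0.00766 (SpenKO 24 h) and -0.00134 to 0.0180 (CIZ1 KO against WT at 24 h). Zfp275 spanned -0.0253 to 0.00956 (WT 3 h), -0.00476 to 0.0426 (SpenKO 24 h) and -0.00143 to 0.0460 (SpenKO against WT, untreated), and Elf4 -0.0272 to 0.0148 in that last comparison. Read depth is unknown, so what it limits could not be computed.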
